A study of Mus musculus with 6 samples.

Results

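The genes described here are 4 transcription factors of the C/EBP family, Cebpa, Cebpb, Cebpd and Cebpg, and 6 acute phase genes of reactive glia, Serpina3n, Lcn2, A2m, Timp1, Steap4 and Cd44. Members were all probe sets whose single gene symbol in the platform annotation is one of these names, which gave 18 probe sets for 10 of the 18193 genes named on the array. Whole retinas of mice about 4 weeks old were compared between prCAD -/- mutants and wild type mice of strain 129, with 3 single-colour Affymetrix arrays in each group. The mutants lack photoreceptor cadherin, the product of Cdhr1, and each array held RNA pooled from the retinas of 3 mice. The labels name no treatment and no strain for the mutants, so that loss of Cdhr1 and differences between strains cannot be told apart. The Cdhr1 probe set read 11.32, 11.36 and 10.98 in wild type and 3.94, 4.20 and 4.34 in mutant arrays. All values are log2 expression on the scale of the authors' RMA processing, and array medians lay between 4.74 and 4.79. In whole retina, a change in the number of cells of a type and a change in RNA per cell cannot be told apart.

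C/EBP factors are basic leucine zipper proteins that bind DNA as dimers. C/EBP-beta and C/EBP-delta are induced by cytokines of the interleukin 6 and interleukin 1 families and drive acute phase genes together with STAT3, whereas C/EBP-alpha is best known from differentiation of fat, liver and myeloid cells. C/EBP-gamma lacks a strong activation domain and acts mainly as a dimer partner of other leucine zipper proteins. In the retina, Müller cells and astrocytes take up a reactive state after injury to photoreceptors, and Serpina3n, Lcn2, Timp1, Steap4 and Cd44 are widely used marks of reactive astrocytes.

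Cebpd, A2m and Serpina3n stood higher in mutant retina by 2.52, 1.24 and 1.08 on the log2 scale, and these 3 probe sets were the members with a difference of 1 or more. Over all 45037 probe sets, 0.131% had a rise of that size. Of the 18 member probe sets, 16 lay higher and 2 lower in the mutant, with a median difference of 0.27 against 0.01 over all probe sets. At 9 member probe sets of 7 genes the mutant arrays lay above every wild type array, which 4.73% of all probe sets did, and at 0 they lay below, against 3.07%. By limma on group alone, 0 members passed at an adjusted p under 0.05, where 0.0111% of all probe sets did in either direction and 0.00888% as higher. At an unadjusted p under 0.05 there were 7 higher members, against 1.68% of all probe sets, and 0 lower, against 1.34%. With the replicate number as a block, Cebpd passed (adjusted p = 0.0379), as 0.0333% of all probe sets did in either direction and 0.0266% as higher. In that fit 10 members were higher at an unadjusted p under 0.05, against 3.77% of all probe sets. The mutant array lay higher within all 3 numbers at 10 members, against 17.0% of all probe sets. The labels do not say whether the pools of a group were prepared separately, so the p-values measure the spread between these arrays, which may be technical.

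**Figure D1:**
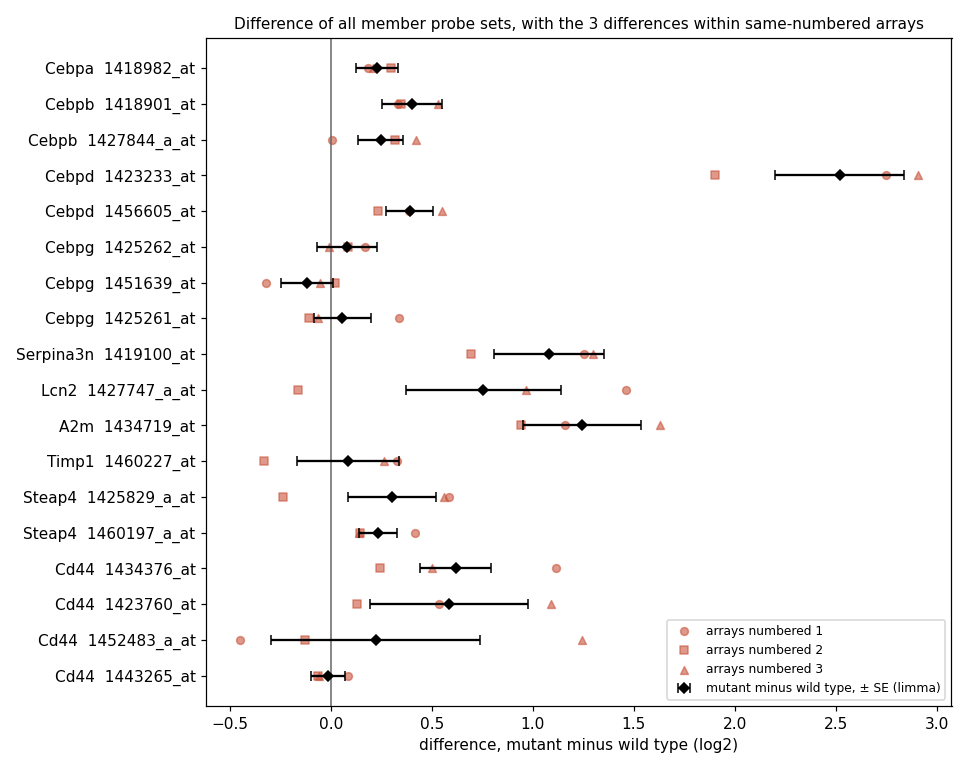
Difference of each of the 18 member probe sets, mutant minus wild type on the log2 scale (horizontal axis), with the limma SE as bars; red symbols give the difference within arrays numbered 1 (circle), 2 (square) and 3 (triangle). The brighter Cebpd probe set lies at 2.52, apart from the other members, and A2m and Serpina3n lie at 1.24 and 1.08 with all 3 within-number differences above 0.

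Cebpd, which encodes C/EBP-delta, was the member with the largest difference. Its brighter probe set, 1423233_at, read 5.33, 5.82 and 4.56 in wild type arrays 1 to 3 and 8.07, 7.72 and 7.46 in mutant arrays 1 to 3. All 3 mutant arrays lay well above the wild type arrays, and wild type replicate 3 was the lowest of the 6. Means were 5.23 ± 0.64 and 7.75 ± 0.31 (SD, n = 3 each), a difference of 2.52 (SE 0.32, 95% interval 1.77 to 3.27) or 5.73-fold. Limma gave an unadjusted p of 9.42e-05 and an adjusted p of 0.217 on group alone. The differences within same-numbered arrays were 2.75, 1.90 and 2.90, and with the replicate block the SE was 0.19 and the adjusted p 0.0379. Cebpd also passed without both arrays numbered 3, where the difference was 2.32 (adjusted p = 0.0458), and with array weights, where it was 2.26 (adjusted p = 0.0303). In these 2 settings 16 and 25 of all probe sets passed, against 5 on group alone. Cebpd did not pass by limma with quantile normalization (adjusted p = 0.178), with median centring (0.228) or without any single array (0.180 at the lowest).

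The other Cebpd probe set, 1456605_at, read 3.88, 3.73 and 3.63 in wild type and 4.26, 3.96 and 4.18 in mutant arrays. Its groups did not overlap either, over a much narrower range, with a difference of 0.39 (SE 0.12) and an adjusted p of 1.00 by limma. All 6 of its values lay below 4.76, the median over all probe sets and arrays, where background can limit a difference.

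Cebpb encodes C/EBP-beta, the factor first known as NF-IL6. At probe set 1418901_at it read 4.10, 3.94 and 4.24 in wild type and 4.43, 4.29 and 4.76 in mutant arrays. The groups did not overlap, but the lowest mutant array lay only just above the highest wild type array. The difference was 0.40 (SE 0.15) and was positive within each number, at 0.33, 0.35 and 0.53. The dimmer probe set, 1427844_a_at, differed by 0.25 (SE 0.11), also with groups that did not overlap. Neither passed over all probe sets (adjusted p = 1.00 by limma, and 0.431 and 0.658 with the replicate block).

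Cebpa, which encodes C/EBP-alpha, read 4.61, 4.60 and 4.44 in wild type and 4.79, 4.90 and 4.65 in mutant arrays. The groups were apart by a small margin, and both lay close to the overall median of 4.76. The difference was 0.23 (SE 0.10, 95% interval -0.01 to 0.48), with 0.18, 0.30 and 0.21 within the numbers.

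Cebpg, which encodes C/EBP-gamma, showed no shift in any one direction over its 3 probe sets. The brightest, 1425262_at, read 6.78, 6.58 and 6.47 in wild type and 6.95, 6.67 and 6.46 in mutant arrays. The groups overlapped, and the difference of 0.08 (SE 0.15) had a 95% interval from -0.27 to 0.43. The second, 1451639_at, differed by -0.12 (SE 0.13, 95% interval -0.42 to 0.18). The dimmest, 1425261_at, differed by 0.06 (SE 0.14, 95% interval -0.28 to 0.39). For each of these, 2-fold changes lay outside the interval. Cebpg and Cebpa are near neighbours on one chromosome in the GRCm38.p6 gene order.

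The change of Cebpd was set against that of each other factor through the difference between their log2 values in each array, at the brightest probe set of each gene. Cebpd stood out by its change when these pairs were formed, so the values are a description. The measured change of Cebpd was larger by 2.29 (SE 0.36) than that of Cebpa, by 2.11 (SE 0.53) than that of Cebpb and by 2.44 (SE 0.33) than that of Cebpg. In each of the 3 comparisons all mutant arrays lay above all wild type arrays. The exact two-sided permutation p was 0.1 for each, also after adjustment over the 3, and 0.1 is the smallest that 3 arrays against 3 can give, so these tests could not reach 0.05. Cebpb and Cebpa read at or below the overall median on most arrays, where background can shrink a measured change. The excess over them therefore holds for these probe sets, and whether it holds for the transcripts is not known. The dimmer Cebpd probe set differed by 0.39, no more than the 0.40 of Cebpb. Averaged over every probe set of each gene, the excess was 1.22, 1.13 and 1.45.

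**Figure D2:**
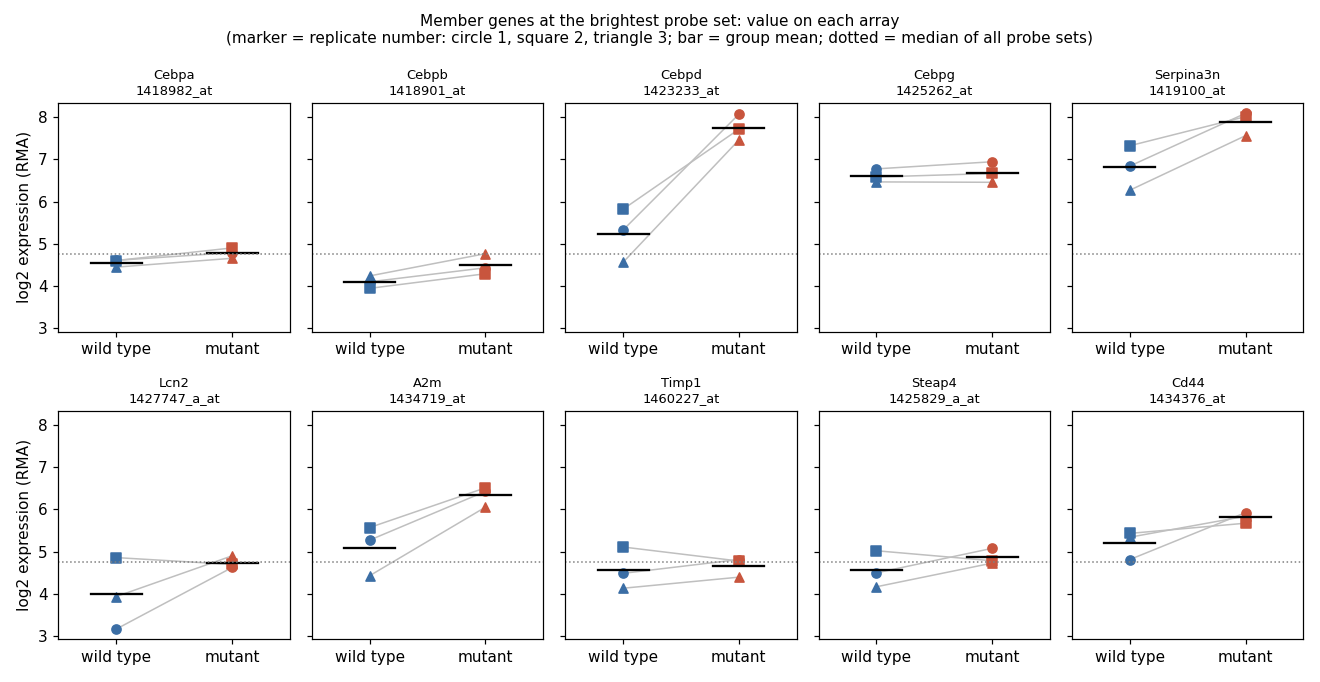
Log2 expression of the 10 genes on each array (vertical axis), each at its brightest probe set, for wild type (blue) and mutant (red); symbols give the replicate number, grey lines join same-numbered arrays, bars are group means and the dotted line is the overall median of 4.76. Cebpd, Serpina3n, A2m, Cebpb, Cebpa and Cd44 have all mutant arrays above all wild type arrays, while Cebpg, Lcn2, Timp1 and Steap4 overlap.

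Among the acute phase genes, A2m, which encodes the broad protease inhibitor alpha-2-macroglobulin, differed most. Its 1 probe set, 1434719_at, read 5.27, 5.57 and 4.43 in wild type and 6.43, 6.52 and 6.06 in mutant arrays. Every mutant array lay above every wild type array, and wild type replicate 3 was again the lowest. Means of 5.09 ± 0.59 and 6.33 ± 0.24 (SD, n = 3 each) gave a difference of 1.24 (SE 0.29, 95% interval 0.56 to 1.93), or 2.37-fold. The adjusted p by limma was 1.00, and 0.0871 with the replicate block, where the within-number differences were 1.16, 0.94 and 1.63. It passed when array weights were combined with the replicate block (difference 1.11, adjusted p = 0.0319).

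Serpina3n encodes a secreted serine protease inhibitor related to human alpha-1-antichymotrypsin. Its 1 probe set, 1419100_at, read 6.84, 7.33 and 6.27 in wild type and 8.10, 8.02 and 7.57 in mutant arrays. The groups did not overlap, wild type replicate 2 coming nearest to the mutant range. The difference was 1.08 (SE 0.27, 95% interval 0.43 to 1.73), or 2.11-fold, with an adjusted p of 1.00 by limma and 0.117 with the replicate block. It was 1.25, 0.69 and 1.30 within the numbers, and 0.97 without both arrays numbered 3.

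Cd44, the receptor for hyaluronan on glia and leukocytes, was measured by 4 probe sets that differed from each other in pattern. The brightest, 1434376_at, read 4.81, 5.43 and 5.34 in wild type and 5.93, 5.67 and 5.84 in mutant arrays. Its groups did not overlap, and the difference was 0.62 (SE 0.18, adjusted p = 1.00 by limma). At 1423760_at the values were 4.44, 4.97 and 5.27 against 4.97, 5.10 and 6.36, and the groups overlapped. That difference, 0.58 (SE 0.39), was 0.14 without mutant replicate 3 and 0.36 without wild type replicate 1.

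At the third Cd44 probe set, 1452483_a_at, mutant replicate 3 read 5.90 while mutant replicates 1 and 2 read 3.80 and 4.05. The wild type arrays read 4.25, 4.18 and 4.66, so that a single array lay high and the other mutant arrays lay lowest of all. Its difference of 0.22 (SE 0.52) became -0.44 without mutant replicate 3. The dimmest probe set, 1443265_at, stayed between 2.93 and 3.02 in all arrays and differed by -0.01 (SE 0.08).

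Lcn2 encodes lipocalin 2, which binds bacterial siderophores and is secreted by reactive astrocytes and by neutrophils. It read 3.16, 4.86 and 3.93 in wild type and 4.62, 4.70 and 4.90 in mutant arrays. The mutant arrays lay close together, while the wild type arrays spread widely and wild type replicate 2 overlapped them. The difference was 0.75 (SE 0.38, 95% interval -0.15 to 1.66), with 1.46, -0.16 and 0.97 within the numbers. It was 0.34 without wild type replicate 1 and 1.19 without wild type replicate 2. The highest mutant array lay just above the overall median of 4.76, so background can limit this difference.

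Timp1, the tissue inhibitor of metalloproteinases that marks reactive astrocytes, read 4.48, 5.11 and 4.13 in wild type and 4.81, 4.78 and 4.39 in mutant arrays. All mutant values lay within the wild type range. The difference of 0.09 (SE 0.25) had a 95% interval from -0.51 to 0.68 and turned to -0.14 without wild type replicate 3.

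Steap4, a metalloreductase of iron and copper, had 2 probe sets. At 1425829_a_at it read 4.50, 5.02 and 4.17 in wild type and 5.08, 4.78 and 4.73 in mutant arrays, with overlapping groups and a difference of 0.30 (SE 0.22). That difference was 0.53 without wild type replicate 2 and 0.11 without wild type replicate 3. At the dimmer 1460197_a_at the groups did not overlap but differed by 0.23 (SE 0.09), all below the overall median. Wild type replicate 2 was the highest wild type array for Lcn2, Timp1 and the brighter Steap4 probe set alike. Within number 2 these 3 probe sets had differences of -0.16, -0.33 and -0.24, opposite to those of numbers 1 and 3.

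The start regions of Lcn2, Steap4 and Serpina3n are shown because acute phase genes are classic targets of C/EBP and STAT factors. They are the members with a C/EBP match and, of those with an entry, the member that differed most. The RefSeq table of build GRCm38.p6 held entries for 8 of the 10 members, without Cebpd and A2m. Each window of 300 bases, 250 before and 50 after a transcript start, was searched on both strands for the C/EBP core TTGCNNAA, the STAT motif TTCNNNGAA and an NF-kappaB motif. The C/EBP core was found in Lcn2 and Steap4, 2 of the 8 members, and in 10.8% of 32851 such windows. The STAT motif was found in Steap4 alone of the 8, as TTCCCGGAA, and in 8.3% of windows, and the NF-kappaB motif in 0 of the 8 and in 1.47% of windows. In the stretches below, which end before the annotated start of the gene, capitals mark the C/EBP core. The match lies 216 to 209 bases before the start in Lcn2 and 87 to 80 bases before it in Steap4. These are matches of letters and no measure of binding. Serpina3n, the member with an entry that differed most, had 0 matches to the 3 motifs in its window. Its stretch is shorter, at 188 bases, as its annotated gene start lies before the transcript start used. Timp1 and Cd44 also had 0 matches and are not printed. Whether motifs bear on the size of the differences was not tested.
Lcn2, chr2:32387740-32387989, minus strand: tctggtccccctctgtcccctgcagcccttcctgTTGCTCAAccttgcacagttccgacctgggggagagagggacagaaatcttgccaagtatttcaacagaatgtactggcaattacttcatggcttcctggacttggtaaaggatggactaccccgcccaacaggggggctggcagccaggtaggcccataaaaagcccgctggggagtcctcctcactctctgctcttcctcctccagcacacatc
Steap4, chr5:7960222-7960471, plus strand: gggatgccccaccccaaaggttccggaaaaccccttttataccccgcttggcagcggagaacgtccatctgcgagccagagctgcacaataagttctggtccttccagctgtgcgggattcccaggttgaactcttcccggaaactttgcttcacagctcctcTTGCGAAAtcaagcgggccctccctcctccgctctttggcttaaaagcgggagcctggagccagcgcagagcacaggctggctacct
Serpina3n, chr12:104406458-104406645, plus strand: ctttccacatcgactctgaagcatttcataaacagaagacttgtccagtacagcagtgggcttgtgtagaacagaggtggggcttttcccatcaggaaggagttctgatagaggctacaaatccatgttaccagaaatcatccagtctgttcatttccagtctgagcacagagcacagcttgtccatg

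Outside the members, the genes around the acute phase response were read from fixed lists, each gene at its brightest probe set. Of 93 such genes 82 were measured, and 0 passed at that probe set by limma, where 0.0165% of all genes did. Socs3 passed at another of its probe sets. Other probe sets are given here for only some of the list genes. Over all genes at the brightest probe set, 2.33% were higher and 1.09% lower at an unadjusted p under 0.05, the median difference was 0.02, and in 5.89% the mutant arrays lay above all wild type arrays.

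Of 12 inducing cytokines, receptors and signal carriers, 5 were higher at an unadjusted p under 0.05 and 0 lower, and the median difference was 0.18. Osmr, the oncostatin M receptor, differed by 1.77 (SE 0.20), Socs3, the feedback inhibitor of STAT3 signalling, by 0.77 (SE 0.12), and Il6st, which encodes the signalling chain gp130, by 0.35 (SE 0.10). The other Osmr probe sets differed by 0.79 (SE 0.26), with 0.12 within number 2, and by 0.08 (SE 0.10) with overlapping groups. Socs3 rose by 1.55 (SE 0.10, adjusted p = 0.0150 by limma) at the dimmer probe set 1455899_x_at, whose suffix marks possible cross-hybridisation. That probe set read 3.80, 3.96 and 4.06 in wild type and 5.42, 5.50 and 5.55 in mutant arrays, a narrow spread within each group. The other 3 Il6st probe sets overlapped and differed by -0.09, 0.07 and 0.00. The remaining 2 of the 5 were Stat3 and Lif, at 1.08 (SE 0.44) and 0.37 (SE 0.15). The Stat3 groups overlapped at this probe set, where mutant replicates 1 to 3 read 7.66, 7.97 and 9.38. At its other probe sets, where the groups did not overlap, Stat3 differed by 1.06, 0.92 and 0.21. Lif lay below the overall median on all arrays. Its other probe set differed by 0.25 (SE 0.19) with overlapping groups. Stat3, Lif and the cytokine genes that follow were named after their values were seen. The cytokine genes Il6, Il1b, Tnf and Osm differed by 0.21, -0.05, -0.03 and -0.04, with Il6 between 2.39 and 3.00 on all arrays. Osmr passed over all probe sets with array weights (adjusted p = 0.0375).

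Acute phase proteins of plasma, which the liver makes in bulk, were mostly dim in retina. Of 20 measured, 18 lay below the overall median on all arrays, 1 was higher and 1 lower at an unadjusted p under 0.05, and the median difference was 0.08. The 1 that was higher was Cp, which encodes the copper oxidase ceruloplasmin, at 0.74 (SE 0.20). The other 7 Cp probe sets ranged from -0.20 (SE 0.45) to 0.99 (SE 0.10), and 4 of them had overlapping groups. The 1 that was lower was Hamp, the iron hormone hepcidin, at -0.25 (SE 0.09), with all arrays below the overall median. Its probe set, 1419197_x_at, carries the suffix of possible cross-hybridisation. The other Hamp probe set differed by -0.18 (SE 0.16) with overlapping groups. Orm2, an orosomucoid gene, differed by 0.21 (SE 0.11).

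Pan-reactive astrocyte genes other than the members had a median difference of 0.63 over 8 genes, and 4 were higher at an unadjusted p under 0.05. They were Osmr, Cp, Vim, the intermediate filament vimentin (0.63, SE 0.24), and Gfap, the glial filament gene (1.60, SE 0.32). Gfap read 6.03, 6.69 and 5.40 in wild type and 7.84, 7.76 and 7.32 in mutant arrays, so wild type replicate 3 was lowest and replicate 2 highest of its group, as for Cebpd, A2m and Serpina3n. Over all probe sets, wild type replicate 3 was lowest of its group in 45.1% and replicate 2 highest in 30%. A second Gfap probe set, 1426509_s_at, differed by 2.33 (SE 0.30, adjusted p = 0.217 by limma) and passed with the replicate block (adjusted p = 0.00598). The third and dimmest, 1440142_s_at, overlapped between groups and differed by 0.17 (SE 0.15), with the mutant array higher within 1 of 3 numbers. Without both arrays numbered 3 the median of these 8 genes was 0.42.

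The lists named A1 and A2 for reactive astrocytes of inflamed and of ischaemic brain differed less. Of 9 measured A1 genes 1 was higher at an unadjusted p under 0.05, Serping1, the inhibitor of the first complement component, at 1.18 (SE 0.34), and the median was 0.14. With the replicate block it was 2, as Fbln5 joined (unadjusted p = 0.0406 by limma), where 4.88% of all genes were higher. H2-D1 differed by 0.84 (SE 0.62) and Fbln5 by 0.26 (SE 0.16). Of 12 A2 genes 0 passed in either direction and the median was 0.06, B3gnt5 differing by 0.52 (SE 0.39), Tm4sf1 by -0.14 (SE 0.12) and Ptgs2 by -0.10 (SE 0.08). These are differences of each list against its own wild type, and the lists were not tested against each other.

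Among 5 measured relatives and partners of C/EBP factors 0 passed at an unadjusted p under 0.05, and the median was 0.03. Trib3 differed by 0.15 (SE 0.12), Nfil3 by 0.10 (SE 0.15) and Atf4 by -0.04 (SE 0.14). Of 8 other metalloproteinase inhibitors and metalloproteinases 0 passed, Timp3 differing by 0.43 (SE 0.20), Timp2 by 0.22 (SE 0.21) and Mmp3 by 0.17 (SE 0.10). With the replicate block 2 of the 8 were higher at an unadjusted p under 0.05 by limma, Timp3 (0.0148) and Timp2 (0.0380), each higher in the mutant within all 3 numbers. Of 10 receptors, ligands and relatives of members, Lrp1, a scavenger receptor that clears alpha-2-macroglobulin, was higher at an unadjusted p under 0.05, by 0.34 (SE 0.12), and differed by -0.26 (SE 0.13) at a dimmer probe set. Has3, a hyaluronan synthase, differed by 0.07 (SE 0.08) and Tfrc, the transferrin receptor, by -0.08 (SE 0.10).

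**Figure D3:**
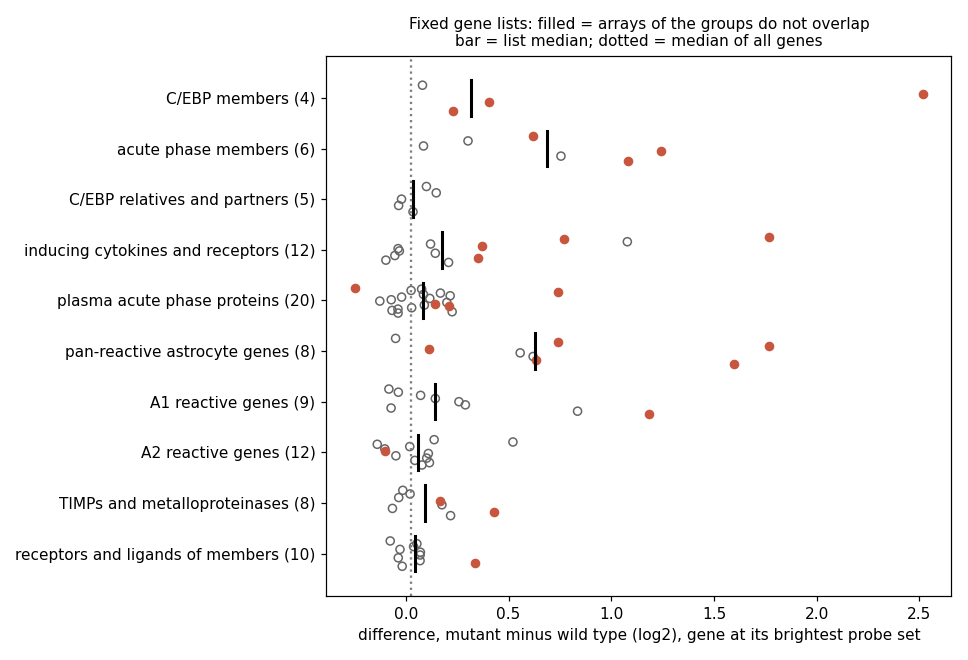
Difference of each gene of the fixed lists at its brightest probe set, mutant minus wild type on the log2 scale (horizontal axis), with list sizes in brackets; filled points are genes whose mutant and wild type arrays do not overlap, bars are list medians and the dotted line is the median of all genes. The acute phase members (median 0.69) and the pan-reactive genes (median 0.63) lie to the right, while plasma acute phase proteins (0.08) and A2 genes (0.06) lie near 0.

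The genes whose profile over the 6 arrays was most like that of Cebpd were Osmr, Pcolce, Gfap, Lrrc2 and Edn2, by the root mean square distance between log2 values taken relative to each wild type mean. The distances were 0.59, 0.59, 0.66, 0.77 and 0.78. Pcolce, an enhancer of procollagen processing, differed by 1.74 (SE 0.29), and Edn2, which encodes endothelin 2, by 3.51 (SE 0.49). For Serpina3n the nearest were Dct, Mlf1, Serping1, Pmel and Gnb3, at 0.11, 0.16, 0.16, 0.20 and 0.21. Dct and Pmel are genes of pigment cells and stand on the pigment epithelium list, and Gnb3 encodes the beta subunit of cone transducin.

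Marker lists of cell types were read beside these differences. Müller glia markers were bright, and their summed level, the log2 of the sum of linear values, ran from 12.65 to 12.97 in wild type and from 12.87 to 13.04 in mutant arrays. These sums overlapped between the groups, and 6 of 10 markers lay higher. Of the 10, 1 was higher at an unadjusted p under 0.05 by limma, where 2.33% of all genes were, and 0 lower. It was Vim, at 0.63 (SE 0.24), whose groups did not overlap. Kcnj10 and Aqp4, a potassium and a water channel of Müller cells, differed by 0.25 (SE 0.19) and 0.15 (SE 0.10). Astrocyte and optic nerve markers ran from 9.81 to 10.21 and from 10.24 to 10.38, with 6 of 8 higher. That separation was narrow and rested on single markers. Without Gfap the ranges were 9.74 to 10.07 and 9.99 to 10.11, and without Aqp4 9.56 to 10.02 and 10.01 to 10.21, which overlap. Rod markers ran from 14.77 to 14.99 and from 14.81 to 14.95, with 1 of 8 higher and a median difference of -0.21. The 1 that lay higher did so at an unadjusted p under 0.05 by limma, with groups that did not overlap. The other 7 lay lower, 0 of them at that level.

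Of 8 measured neutrophil markers, which bear on Lcn2, 4 lay higher and 4 lower, and 0 passed at an unadjusted p under 0.05. Their summed level ran from 7.75 to 7.87 in wild type and from 7.77 to 7.85 in mutant arrays. S100a8 differed by 0.19 (SE 0.14), Mpo by -0.11 (SE 0.09) and Ngp by -0.08 (SE 0.11). Microglia and macrophage markers lay higher in 11 of 12 cases, 4 of them at an unadjusted p under 0.05, and their summed level ran from 8.88 to 9.003 in wild type and from 9.24 to 9.36 in mutant arrays. Ctss differed by 0.85 (SE 0.18), C1qa by 0.55 (SE 0.13) and C1qc by 0.47 (SE 0.10). The markers that follow were named after their values were seen. Aif1, Itgam and P2ry12 lay below the overall median on all arrays. P2ry12, the 1 that did not lie higher, differed by -0.008 (SE 0.25), and Tmem119 differed by 0.09 (SE 0.10), both with overlapping groups. The part of microglia in the member differences was not tested.

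Markers of the retinal pigment epithelium stood higher alongside the members. All 12 lay higher in the mutant, 9 at an unadjusted p under 0.05, with a median difference of 0.90. Their summed level ran from 9.20 to 10.32 in wild type and from 10.92 to 11.34 in mutant arrays. This sum was lowest in wild type replicate 3, as were Cebpd, A2m and Serpina3n. That array was lowest of its group in 45.1% of all probe sets. Not every marker followed the sum, as Mlana and Tyrp1 were lowest in wild type replicate 1. This list and the microglia list stayed apart with any 1 marker left out. Slc6a20a differed by 0.92 (SE 0.19), with all arrays below the overall median, Mlana by 0.88 (SE 0.21) and Tyrp1 by 0.68 (SE 0.19). Best1 and Lrat, named after their values were seen, differed by 0.006 (SE 0.10) and 0.13 (SE 0.10), with overlapping groups. The part of pigment epithelium in the member differences was not tested. Lens markers, with 7 of 8 higher, ran from 13.50 to 14.75 and from 14.38 to 14.92 and were likewise lowest in wild type replicate 3. The summed levels of vessel and fibroblast markers (7 of 10 higher) and of red cell markers (3 of 4) overlapped between the groups. Of the 10 vessel and fibroblast markers, 4 had all mutant arrays above all wild type arrays, where 5.89% of all genes did. For 1 of them all mutant arrays lay below.

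**Figure D4:**
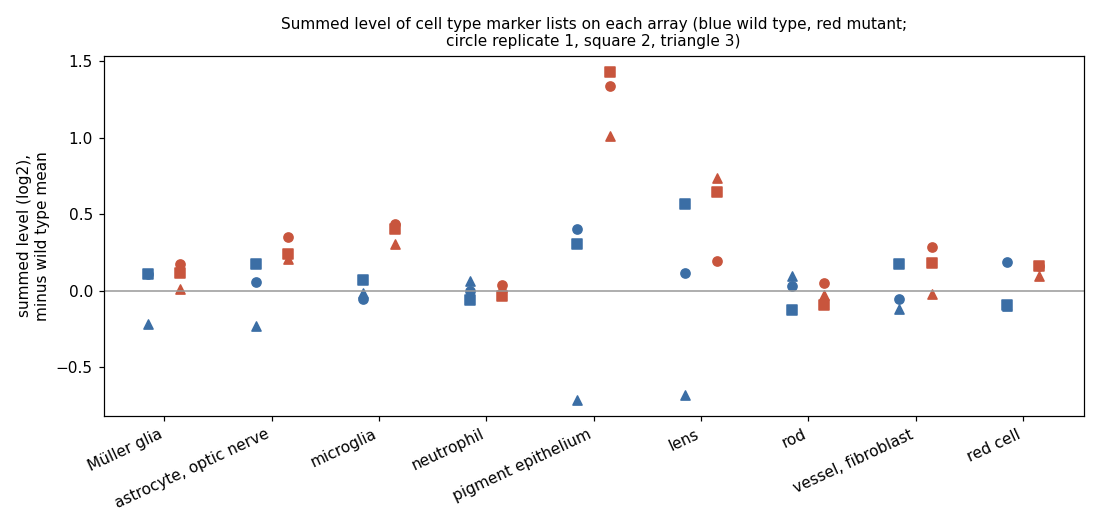
Summed level of each marker list on each array, as log2 minus the wild type mean of that list (vertical axis), for wild type (blue) and mutant (red), with symbols for the replicate number. Microglia, astrocyte and pigment epithelium markers have all mutant arrays above all wild type arrays, with the widest gap for pigment epithelium and an astrocyte gap that closes without Gfap or without Aqp4, while neutrophil, rod and Müller glia markers overlap.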

How the data were processed

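Retinal RNA was purified by Trizol and an RNeasy kit and then labelled with biotin, per the labels' protocols. Log2 expression is what the deposited table holds, and RMA is the tool that the submitters' processing notes name, without a version. RMA equalises the arrays' distributions, so array-wide differences are removed. Of 45101 probe sets, 64 controls were left out. Of the 45037 tested, 34945 have 1 gene symbol, 932 several and 9160 none here. No detection calls were used here, and the number of arrays limits the precision.

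Groups followed the sample titles. The test was limma 3.58.1 (lmFit, eBayes; R 4.3.3) with group as the only term, and Benjamini-Hochberg adjusted p-values over the 45037 probe sets were called under 0.05. Deviations of same-numbered arrays correlated at 0.477, 0.469 and 0.563, so the numbers were taken to pair the arrays. This rests on the values, as no label explains the numbering. A gene of a list was taken at its brightest probe set. Named were all members, up to 3 list genes with the smallest p, and the 5 genes of nearest profile to Cebpd and to Serpina3n. Members, lists, rules and alternatives were chosen with earlier results of these data known. Alternatives were the replicate block, quantile normalization, median centring, dim or cross-hybridising probe sets left out, trend and robust eBayes, array weights, single arrays or both numbered 3 left out, and a threshold of 0.1. Leaving each marker out of its list's sum was added after the data were seen. The fit was tested on simulated data. Promoters came from RefSeq, GRCm38.p6. No source used here names the authors' genome build. Figures were drawn with matplotlib 3.10.9.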

Additional observations from a re-analysis of the deposited data

How the results depend on the processing

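The count of 0 member probe sets past the threshold became 1 with the replicate block, 1 with array weights, 1 without both arrays numbered 3 (Cebpd each time) and 2 with array weights and the replicate block (Cebpd and A2m). The block changed no other call among the members at the adjusted threshold. At an unadjusted p under 0.05 by limma, 7 members were higher with group alone, against 1.68% of all probe sets. With the replicate block there were 10, against 3.77%. Without single arrays the count was 6 to 7, and with dim probe sets left out, where fewer members were tested, it was 4. For these settings no share over all probe sets is given, so the counts carry no comparison. The dim filter kept probe sets with all 3 arrays of either group above the overall median. Cebpd and A2m met this only through the mutant arrays, where they are high, so that count is no support for them. Over all probe sets 5 passed, and 15 with the replicate block, 25 with array weights, 76 with both, 16 without both arrays numbered 3, 3 without cross-hybridising probe sets and 2 to 9 without single arrays. Of the list genes at their brightest probe set 0 passed, and 1 with array weights (Osmr) and 3 with weights and block (Osmr, Socs3 and Gfap). The excess of Cebpd over each other factor was 1.70 to 2.74 without single arrays, and the exact sign-flip p over the 3 pairs was 0.25, the smallest possible with 3 pairs. Signs turned at 5 member probe sets, and the cause was not tested. Timp1 was -0.018 with array weights, -0.063 with weights and block, -0.0030 without both arrays numbered 3 and -0.14 to 0.35 without single arrays. Cd44 1452483_a_at was -0.10, -0.0041 and -0.29 in those 3 settings and -0.44 to 0.61 without single arrays. Cd44 1443265_at was 0.0096 without both arrays numbered 3 and -0.037 to 0.00081 without single arrays. Without single arrays Cebpg ranged from -0.047 to 0.20 at 1425262_at and from -0.097 to 0.14 at 1425261_at. The other 13 member probe sets kept their sign in every alternative. No detection call was used, so differences between values near or below the overall median are the least certain.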
